A study of Homo sapiens with 4 samples.

Results

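Nonsense-mediated decay and the exon junction complex are described here through 9 human genes, UPF1, UPF2, UPF3A, UPF3B, SMG1, SMG5, SMG6, RNPS1 and CASC3, chosen by symbol from a deposited table of skipped exon events. The 9 genes had 62 of the 65601 events in the table, and 60 of them averaged 20 or more junction reads over the 4 libraries, as did 54503 events of the table, which spans 11646 genes. An event is an exon with the exon before and the exon after it. Its inclusion level is inclusion reads over inclusion plus skipping reads of that event, each scaled by the length of its form. It stands for the share of transcripts with the middle exon only where no other form shares its junctions. The 60 events hold 54 distinct exons, because an exon can appear with different neighbours or end at different splice sites, and events of that kind share reads.

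The study sequenced polyadenylated RNA of 293T cells, a human embryonic kidney line, as paired reads of 150 bases. In 2 samples SNORD89, a small nucleolar RNA, was targeted with a gapmer antisense oligonucleotide, a DNA-centred oligonucleotide that directs cleavage of its target, transfected with lipid at 70 nM. The other 2 samples are labelled as having no treatment, although the transfection text stands on every sample and no control oligonucleotide is named. Medium was changed at 24 h and RNA was taken at 48 h. The question is whether exon inclusion differs between these conditions, but neither the labels nor the header of the table says which of its sets is the treated group, so the sets are called the first and the second set, with 2 libraries each, and no difference below can be read as up or down with the oligonucleotide. The library numbers name the place of a value in the table and pair nothing. The table counts spliced junctions only, so it does not check the knockdown of SNORD89. The labels do not say whether the 2 libraries of a group came from separate cultures, so the p-values may measure only technical spread.

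Nonsense-mediated decay removes messenger RNAs whose stop codon lies well upstream of a spliced junction. The exon junction complex is left on the RNA at each splice, and a ribosome that stops before such a complex allows UPF3B and UPF2 to contact the helicase UPF1, which the kinase SMG1 phosphorylates before SMG5 and SMG6 act in the decay. CASC3 is a core subunit of the complex and RNPS1 a peripheral splicing factor bound to it. Several genes of the pathway are known to be targets of it themselves, through alternative exons and long 3′ untranslated regions, so exons that shift the frame or carry a stop codon are of interest in these genes.

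The sequences of 6 alternative exons are shown because the results below turn on them: the pair of nested forms in UPF3B, the pair of nested forms in UPF3A, the UPF3A exon with the largest difference between the sets and the SMG1 exon that was called. They were read from GENCODE 29 transcripts, matched by the spacing of the 3 exons, on the sense strand from 5′ to 3′. Of the 60 events, 54 matched a transcript. In UPF3B the exon of 39 nt lies at chrX:118974609-118974647 (hg19, minus strand) and is exon 8 of UPF3B-201. The longer form, chrX:118974557-118974647, has the same start and 52 further bases, and the capitals mark an in-frame TAG at its base 70 when it is read in the frame of UPF3B-201. In UPF3A (chromosome 13, plus strand) the exon of 99 nt, chr13:115051777-115051875, is coding exon 4 of UPF3A-202. The form of 142 nt, chr13:115051734-115051875, belongs to the non-coding transcript UPF3A-210, and the capitals mark the 43 bases that the shorter form lacks. The UPF3A exon of 161 nt is chr13:115064315-115064475, coding exon 8 of UPF3A-202. The SMG1 exon of 156 nt is chr16:18907374-18907529 on the minus strand, coding exon 3 of SMG1-202, and GENCODE 29 lists 4 transcripts with it and 3 that skip it.
UPF3B exon of 39 nt: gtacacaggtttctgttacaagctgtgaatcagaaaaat
UPF3B form of 91 nt: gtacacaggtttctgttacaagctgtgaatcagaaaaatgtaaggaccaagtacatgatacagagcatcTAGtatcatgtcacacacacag
UPF3A exon of 99 nt: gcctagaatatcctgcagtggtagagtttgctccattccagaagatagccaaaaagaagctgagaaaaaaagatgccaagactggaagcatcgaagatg
UPF3A form of 142 nt: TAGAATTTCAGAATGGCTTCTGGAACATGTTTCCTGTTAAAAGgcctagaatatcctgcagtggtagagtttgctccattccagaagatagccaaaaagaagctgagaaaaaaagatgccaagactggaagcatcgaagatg
UPF3A exon of 161 nt: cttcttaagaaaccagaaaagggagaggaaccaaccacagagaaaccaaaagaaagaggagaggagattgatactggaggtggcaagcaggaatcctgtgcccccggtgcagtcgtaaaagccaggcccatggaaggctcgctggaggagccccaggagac
SMG1 exon of 156 nt: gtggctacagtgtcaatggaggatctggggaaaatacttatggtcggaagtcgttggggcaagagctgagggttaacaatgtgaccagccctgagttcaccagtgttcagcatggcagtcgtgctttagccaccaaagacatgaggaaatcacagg
The UPF3B 39 nt, UPF3A 99 nt and SMG1 156 nt exons are multiples of 3 in length, so skipping them keeps the frame, whereas the other forms shown change it. Of the 60 events, 22 (36.7%) had an exon length divisible by 3, against 40% of all tested events.

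Junction reads summed over the events of the table, in which a read can count for several events, came to 38613055 and 39012939 for the first set and to 42868431 and 43929373 for the second. The median tested event had 222 and 199 reads against 157 and 171. The events of the 9 genes were deeper than most, with a median of 361.8 mean reads per library against 190 over all tested events, and a range of 22.75 to 6484. Just inside the minimum of 20 reads stood a UPF3A event with a mean of 22.75, and outside it were a SMG5 event with 9.25 and an RNPS1 event with 1.5. Of the markers checked for the cell line, PAX2 had events with up to 27 reads in a library and CDH2 with up to 614, and no event of PAX8, INA, NEFM or NEFL, or of the blood, liver, heart and skin genes PTPRC, ALB, MYH7 and KRT5, was analysed here.

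Few differences in exon use passed a test in these genes. By the authors' deposited table, with a false discovery rate (FDR) under 0.05 and a difference of at least 0.1, the SMG1 exon of 156 nt was the only member event called, 1 of 60 (1.67%), where 2.71% of all tested events were called (1.34% higher and 1.37% lower in the first set). By the same authors' deposited table, 4 of the 60 events (6.67%) and 14.3% of all had p-values under 0.05. A quasi-binomial test over the libraries, with Benjamini-Hochberg adjustment over all 54503 events, called 0 of the 60, with 0 also at an unadjusted p under 0.05 (2.93% of all events), and its smallest member p was 0.0679 (adjusted p = 0.865). It called 1 event in the whole table (0.00183%). A limma fit of log2 inclusion-to-skipping ratios, with 0.5 added to each read count, called 0. At an unadjusted p under 0.05 it had 0 (4.85% of all events). That fit found none of the known differences in simulated data, so its lack of calls cannot show that differences are absent. With 1 added to each count, its smallest unadjusted member p by limma was 0.0101.

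The small differences went both ways. Inclusion was numerically higher in the first set for 28 events and lower for 32, with a median absolute difference of 0.00685 against 0.0114 over all tested events. The levels of the sets did not overlap in 9 events (15%), which was under the 22.9% of all events. Most exons were almost always included: 43 events (71.7%) had a mean inclusion level above 0.95, as did 66.1% of all tested events, 7 were under 0.05, and 10 (16.7%, against 24.6% of all) lay between. Those 10 events fell in UPF3A (5), SMG1 (2), UPF3B, SMG5 and RNPS1, and their median absolute difference was 0.0639, against 0.0551 over all events between the same levels.

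**Figure D1:**
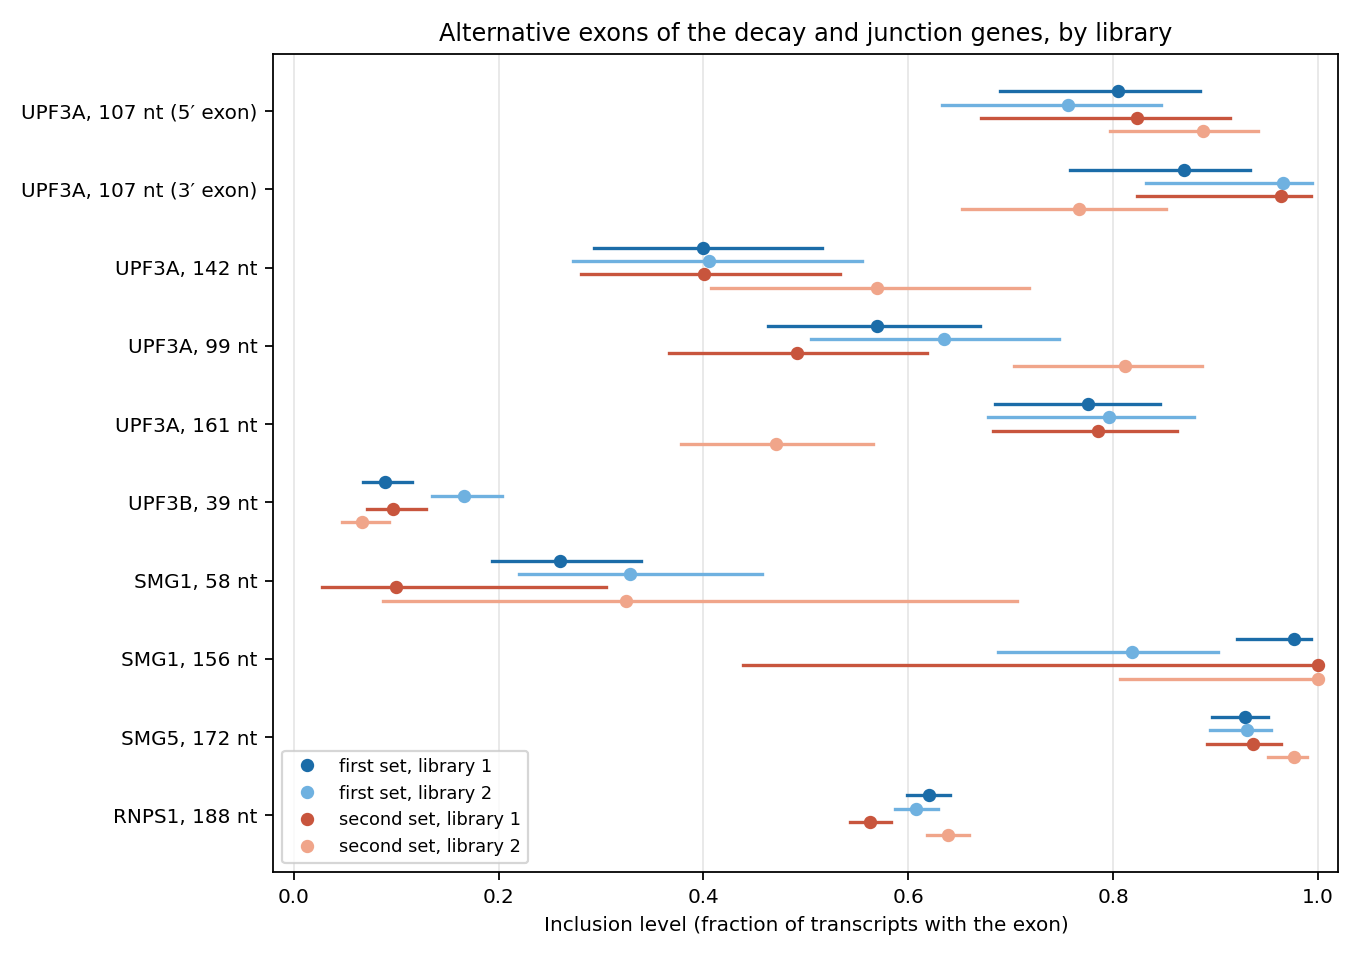
Inclusion level (x axis, fraction from 0 to 1) of the 10 events with a mean level between 0.05 and 0.95 in each of the 4 libraries. Points are libraries and bars are 95% Wilson intervals, which cover counting error only. The points of the sets overlap in most rows, and the UPF3A exon of 161 nt is low in library 2 of the second set alone, at 0.471.

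**Figure D2:**
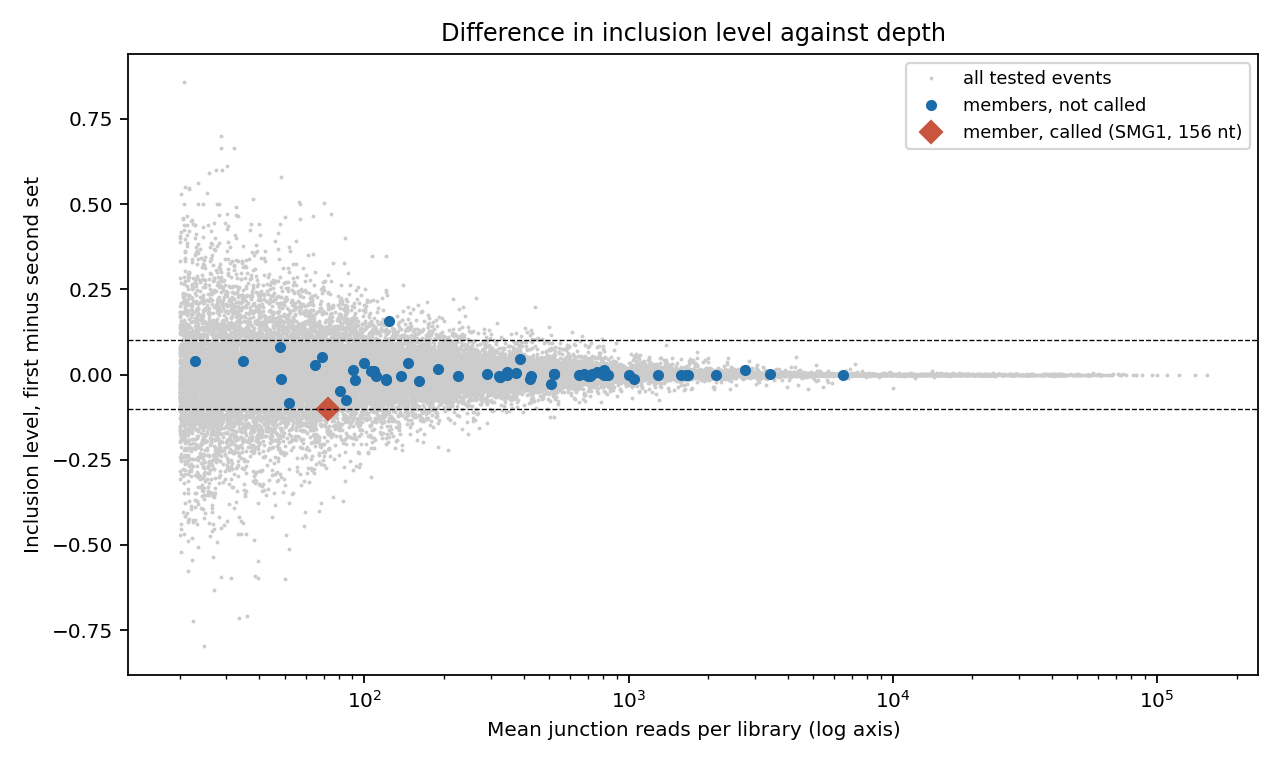
Difference in inclusion level (y axis, first minus second set) against the mean junction reads per library (x axis, log scale) for all 54503 tested events in grey and the 60 member events in colour. Dashed lines mark a difference of 0.1 in either direction, and 2 member events lie beyond them, the SMG1 exon of 156 nt and the UPF3A exon of 161 nt.

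UPF3B and UPF3A are paralogues that bind the exon junction complex and UPF2, UPF3B being the more active in decay. The UPF3B exon of 39 nt was a minor form, with inclusion levels in the first set of 0.0887 (95% Wilson interval 0.0675 to 0.116) and 0.166 (0.135 to 0.203). The second set had 0.0965 (0.0714 to 0.129) and 0.0667 (0.0472 to 0.0933). Behind these levels stood 49 and 79 inclusion reads with 399 and 314 skipping reads for the first set, and 40 and 31 with 297 and 344 for the second. Library 2 of the first set stood above the other 3, whose intervals overlapped each other, and the sets overlapped. The mean was 0.0459 higher in the first set. The authors' deposited table listed 0.1142 as the FDR, with a quasi-binomial p of 0.118 (adjusted p = 0.865 or more for every member event). Without library 2 of the first set the difference was 0.00714.

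Where 2 pairs of values are set against each other from here on, the first set comes first. The longer UPF3B form with the in-frame TAG was rare in every library. The first set had levels of 0.0138 and 0.0269 and the second 0.0144 and 0.0125, from 9, 14, 7 and 7 inclusion reads. Library 2 of the first set was again the highest, and the skipping reads are the same as those of the 39 nt exon, so the events are not independent. The authors' deposited table listed 0.9244 as its FDR. The other 4 UPF3B events were included at 0.956 or above in every library.

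UPF3A had the most variable exons of the 9 genes, with 5 of its 8 tested events between 0.05 and 0.95. The 161 nt exon had levels in the first set of 0.775 (0.684 to 0.846) and 0.796 (0.678 to 0.879). The second set gave 0.786 (0.683 to 0.862) and 0.471 (0.378 to 0.566). The 41 skipping reads of library 2 of the second set stood against 15 in the other library of that set and 20 and 11 in the first. The mean was 0.157 higher in the first set, the largest difference among the 60 events, but 1 library made it: the FDR was 0.4689 by the authors' deposited table, the quasi-binomial p was 0.0989, and without library 2 of the second set the difference was 7.43e-05. Without the other library of the second set it was 0.315.

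The nested UPF3A forms that share a 3′ end also moved most in that library. The 99 nt exon stood at 0.569 and 0.635 in first-set libraries and at 0.491 and 0.811 in second-set libraries, so both extremes came from the second set. The 142 nt form stood at 0.400 and 0.406, then at 0.400 and 0.570. Reads of the junction at the shared end count for each form, so these levels are not the shares of the 2 forms. For both, the authors' deposited table listed an FDR of 1, and they share their 30, 18, 23 and 12 skipping reads. Without library 2 of the second set, the difference of the 99 nt exon changed from -0.0496 to 0.110.

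The remaining UPF3A exons with events between 0.05 and 0.95 lie upstream, and both are 107 nt long. The exon at chr13:115047496-115047602, exon 2 of UPF3A-202, stood at 0.805 and 0.756 in first-set libraries and at 0.823 and 0.888 in second-set libraries. The sets did not overlap, but for the difference of -0.0754 the authors' deposited table listed 0.4695 as the FDR. The exon at chr13:115048312-115048418, exon 3 of UPF3A-201, stood at 0.869 and 0.966 against 0.964 and 0.767, with library 2 of the second set the lowest. For it the authors' deposited table listed 0.8886 as the FDR. The 3 other UPF3A events, which hold both of these exons with other neighbours and a 111 nt exon, were at 0.921 or above. A level differed by more than 0.1 between the libraries of the second set in 5 member events (8.33%, against 12.9% of all), 4 of them in UPF3A and the other in SMG1. Between the libraries of the first set only the SMG1 exon of 156 nt did so (1.67%, against 7.72% of all).

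SMG1 encodes the kinase that phosphorylates UPF1. On its 156 nt exon the first set had 171 and 72 inclusion reads with 2 and 8 skipping reads, and the second had 6 and 32 inclusion reads with no skipping read. In the first set the inclusion level was 0.977 (0.921 to 0.994) and 0.818 (0.688 to 0.902). It was 1 in both libraries of the second set, with intervals from 0.439 and from 0.806 up to 1. The sets did not overlap, and the second set's intervals covered both levels of the first set. The authors' deposited table gave a difference of -0.103, a p-value of 0.0032 and 0.04998 as the FDR, so the event stood just inside both limits, and the quasi-binomial p was 0.390. Without library 2 of the first set the difference was -0.0229.

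The other alternative SMG1 exon, 58 nt at chr16:18911309-18911366, is exon 2 of SMG1-203, where it is partly coding, and read in the frame of SMG1-202 it brings a stop codon at its base 8. The first set had levels of 0.260 and 0.328, from 39 and 21 inclusion reads. In the second set they were 0.0997 and 0.324, from 2 reads in each library, with intervals of 0.0272 to 0.305 and 0.0876 to 0.706. The sets overlapped, and the authors' deposited table listed 0.4172 as the FDR. The difference of 0.0818 changed to -0.0305 without library 1 of the second set. The 3 other SMG1 events had levels of 0.973 or above.

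SMG5 binds phosphorylated UPF1. Its 172 nt exon form, chr1:156236298-156236469 of the non-coding transcript SMG5-205, stood at 0.929 and 0.930 in first-set libraries and at 0.937 and 0.977 in second-set libraries. The 138 nt form that ends at the same base, exon 11 of SMG5-201, was included at 0.965 and 0.968 against 0.972 and 0.989. Neither form overlapped between the sets, but they share their 24, 19, 11 and 6 skipping reads and are 1 observation. Reads of the junction at their common end also count for each form, so the share of the 172 nt form is not known from its level. For the differences of -0.0274 and -0.0142 the authors' deposited table listed FDRs of 0.2133 and 0.1796 and p-values of 0.0261 and 0.0202, beside quasi-binomial p-values of 0.253 and 0.230. Without library 2 of the second set the difference of the longer form was -0.00743.

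The SMG5 event below the read minimum, a 90 nt exon at chr1:156243152-156243241, stood at 0.652 and 0.466 in first-set libraries and at 1 in both others. It rested on 6 and 7 inclusion and 2 and 5 skipping reads for the first set and on 9 and 8 inclusion reads for the second. The authors' deposited table listed a difference of -0.441 and 0.0003583 as the FDR, and it would be called without the minimum. The 6 remaining SMG5 events were included at 0.952 or above, and the smallest quasi-binomial p of all members, 0.0679, belonged to its 99 nt exon 2, at 1 and 0.995 against 0.996 and 0.974.

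RNPS1 had the most deeply covered alternative exon. Its 188 nt exon, chr16:2314574-2314761 on the minus strand, is partly coding, and read in the frame of RNPS1-220 it brings a stop codon at its base 77. It is exon 2 of RNPS1-202, and GENCODE 29 lists this combination of exons in 1 protein-coding transcript and in 1 annotated as a decay target. Paired with the upstream exon of RNPS1-202 it stood at 0.620 and 0.608 in first-set libraries and at 0.563 and 0.639 in second-set libraries. The first set lay between the libraries of the second, and the intervals were narrow, from 0.543 to 0.583 in the lowest library and from 0.618 to 0.659 in the highest. For the difference of 0.0130 the authors' deposited table listed an FDR of 1, and the quasi-binomial p was 0.509, although each library had at least 2005 inclusion and 612 skipping reads. With 2 other upstream exons the same 188 nt exon was included at 0.995 or above.

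The rare RNPS1 exons were hardly used in any library. A group of small overlapping exons of 63, 49 and 44 nt, in 4 events of which 3 share their skipping reads, was at 0 in 3 libraries and at most 0.0181 in library 2 of the first set. The 107 nt exon of RNPS1-218 stood at 0.0107 and 0.0356 against 0.0255 and 0. The deepest RNPS1 event, the 142 nt exon 8 of RNPS1-201, was included at 0.988, 0.992, 0.990 and 0.994.

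UPF1, UPF2, SMG6 and CASC3 had no tested event with a mean level between 0.05 and 0.95. UPF1, the helicase of the pathway, had an 80 nt exon of the non-coding transcript UPF1-208 (chr19:18961859-18961938) with 5, 6, 0 and 5 inclusion reads, at 0.00926 and 0.0103 against 0 and 0.0144. The count of 0 beside 199 skipping reads allows a level of up to 0.0124 (upper 95% Wilson bound), which overlaps the intervals of the other 3 libraries. The other 6 UPF1 events were at 0.993 or above. The 4 events of UPF2, the adaptor between UPF3 proteins and UPF1, were at 0.931 or above, and the 276 nt exon 13 of UPF2-201 was at 0.982 and 0.977 against 1 in both libraries of the second set, from 2 and 2 skipping reads against none.

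SMG6 is the endonuclease that cuts the target near its stop codon. Its 5 events were at 0.920 or above in every library, with 3 and 0 skipping reads in all against 5 and 7. The 5 CASC3 events were at 0.975 or above. In CASC3 the 242 nt form of an internal exon, chr17:38323624-38323865, belongs to CASC3-205, a transcript annotated as a decay target, and has an in-frame stop at base 67. Its reads were 465 and 389 against 236 and 208, beside 985, 803, 535 and 534 for the 115 nt coding form that shares its downstream junction. Since the shared junction is counted in both, the share of the 242 nt form was not computed.

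Skipping of exons that are normally included was counted over the 41 distinct skipping junctions of near-constitutive member events. The first set had 140 and 131 skipping reads there and the second 116 and 84, or 3.8 and 3.91 per 1000 junction reads against 3.98 and 2.5. Library 2 of the second set was the lowest and the other 3 were close to each other. Over all 31116 such junctions of the table the values were 2.9 and 2.77 against 2.55 and 2.26, with the same library lowest. The number of the 41 junctions with any skipping read was 23 in both libraries of the first set and 18 and 11 for the second (56.1%, 56.1%, 43.9% and 26.8%), and over all genes the shares were 59.3%, 55.6%, 47.8% and 24.2%.

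The junction reads of an event, inclusion and skipping together, also follow the amount of the transcript. They were compared for the event with the most reads in each gene, scaled for library size over such events with trimmed-mean factors and tested with limma voom over 9999 genes. Of the 9 genes, SMG1, UPF1 and CASC3 were higher in the first set and RNPS1 was lower, 4 of 9 where 32.8% of all genes passed (17.8% higher, 15.0% lower). In bulk RNA, a change in the share of cells that express a gene and a change in the RNA per cell cannot be told apart.

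SMG1 differed most. Its deepest event, the 223 nt exon 39 of SMG1-202 (chr16:18856751-18856973), had 282 and 155 reads against 19 and 25, which is 23.1 and 13.3 against 1.77 and 2.15 RPM, the depth-scaled read unit, with those factors. All libraries of the first set were far above those of the second. The log2 difference was 3.15 (SE 0.516, 8.85-fold; limma voom adjusted p = 4.72e-05), at the 99.7th percentile of all genes. The difference was alike at all 5 SMG1 events, from 2.93 to 3.14 on the log2 scale over 54.39 kb of the gene. GENCODE 29 lists 7 SMG1 pseudogenes, near copies of part of the gene, and the treatment of reads that fit several copies is not given in the sources used here, so SMG1 reads are uncertain. The pseudogene with events in the table, SMG1P1, had 33 and 18 reads against 0 and 11.

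UPF1 had 991 and 999 reads against 589 and 636 on its 214 nt exon 15, with a log2 difference of 0.61 (SE 0.156, limma voom adjusted p = 0.00349). CASC3 had 1163 and 943 against 626 and 604 on its 215 nt exon 11, with a log2 difference of 0.68 (SE 0.159, limma voom adjusted p = 0.00172). RNPS1 had 5771 and 5876 against 6974 and 7315 on its 142 nt exon, with a log2 difference of -0.39 (SE 0.142, limma voom adjusted p = 0.0353). The sets did not overlap in any of these genes, but that comes from the same reads as the test and was not counted over all genes. The RNPS1 call was lost when libraries were scaled by their totals alone (-0.05, limma voom adjusted p = 0.771). It was also lost whichever single library was left out, and the CASC3 call was lost without library 1 of the first set (log2 difference 0.58). Such fits leave 1 library in a set, and calls were then fewer over all genes as well. With reads summed over all events of a gene, UPF1 (0.26, limma voom adjusted p = 0.114) and RNPS1 (-0.30, limma voom adjusted p = 0.0650) did not pass, and UPF2 did (0.78, limma voom adjusted p = 0.00927).

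The other 5 genes did not pass. UPF2 had 225 and 174 reads against 134 and 110 and a log2 difference of 0.62 (95% interval 0.049 to 1.20, limma voom adjusted p = 0.0867). The log2 differences of UPF3A, UPF3B, SMG5 and SMG6 were -0.03, -0.10, 0.05 and 0.05, with 95% intervals that reached from -0.667 to 0.614 for UPF3A and from -0.430 to 0.539 for SMG6, so changes of that size are not excluded by these libraries.

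**Figure D3:**
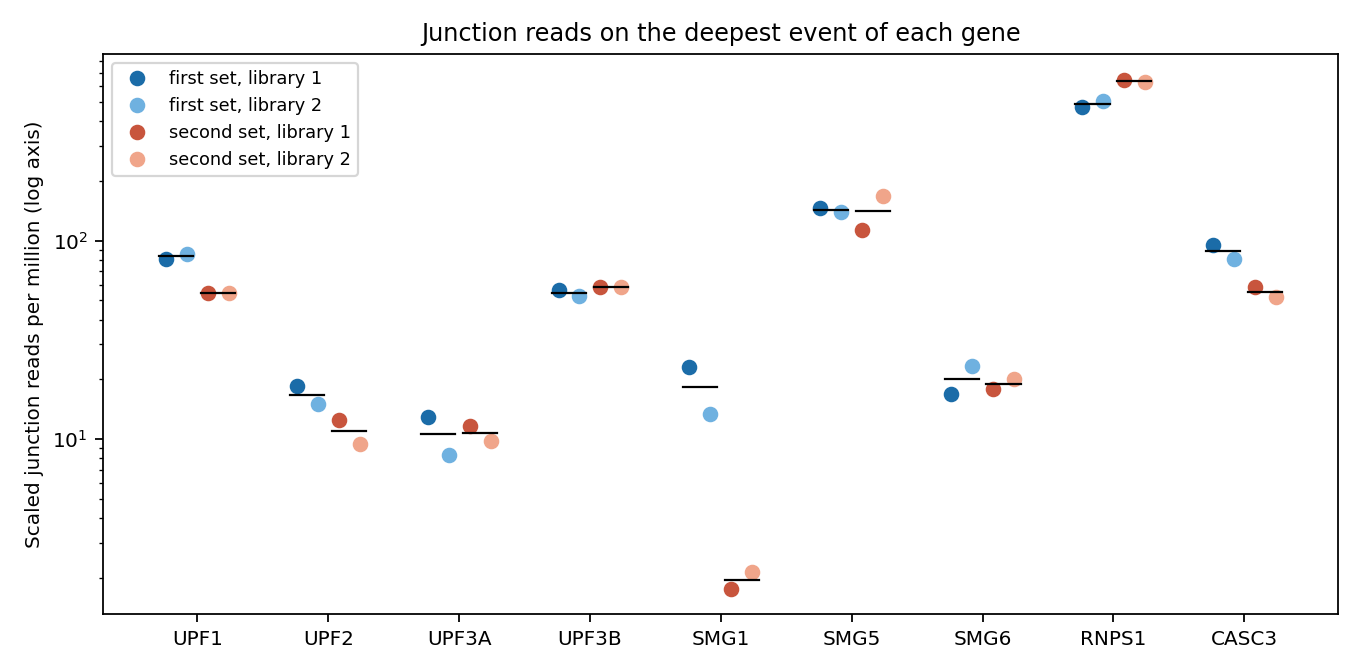
Scaled junction reads in RPM (y axis, log scale) on the deepest event of each of the 9 genes. Points are the 4 libraries and black lines are the means of each set. SMG1 has a mean of 18.2 in the first set and 1.96 in the second, and the sets lie much closer in the other 8 genes.

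The read differences varied with the position along the gene in most of the 9, and little in SMG1. In UPF1 the log2 ratio of the first to the second set fell from 0.69 at the most 5′ exon to -0.01 at the most 3′ exon, 14.99 kb away. In CASC3 it fell from 1.25 to 0.20, in SMG5 from 0.69 to -0.34 and in SMG6 from 1.18 to 0.06. In 8 of the 9 genes the ratio of 5′ to 3′ reads was higher in the first set than in the second, as in 75% of the 7482 genes with events at least 1000 nt apart. The median log2 difference of that ratio was 0.543 over the 9 genes and 0.288 over all. SMG1 was the exception, at -0.132, but its reads in the second set were few. They were 15 and 5 at its 5′ event and 19 and 25 at its 3′ event, and the log2 ratios of those libraries were -0.331 and -2.21.

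With the 3′-most event of each gene in place of the deepest, SMG1 alone of the 9 passed (29.4% of all genes did), at a log2 difference of 3.20, while UPF1 was at 0.05 (limma voom adjusted p = 0.849) and CASC3 at 0.26 (limma voom adjusted p = 0.316). With the 5′-most event SMG1, CASC3 and SMG6 passed (31.4% of all genes did), SMG6 at 0.95 (limma voom adjusted p = 0.0466). The 5′ to 3′ balance of reads, a measure of RNA and library quality, differed between the sets together with the UPF1, CASC3 and SMG6 values, and its part in them was not tested.

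**Figure D4:**
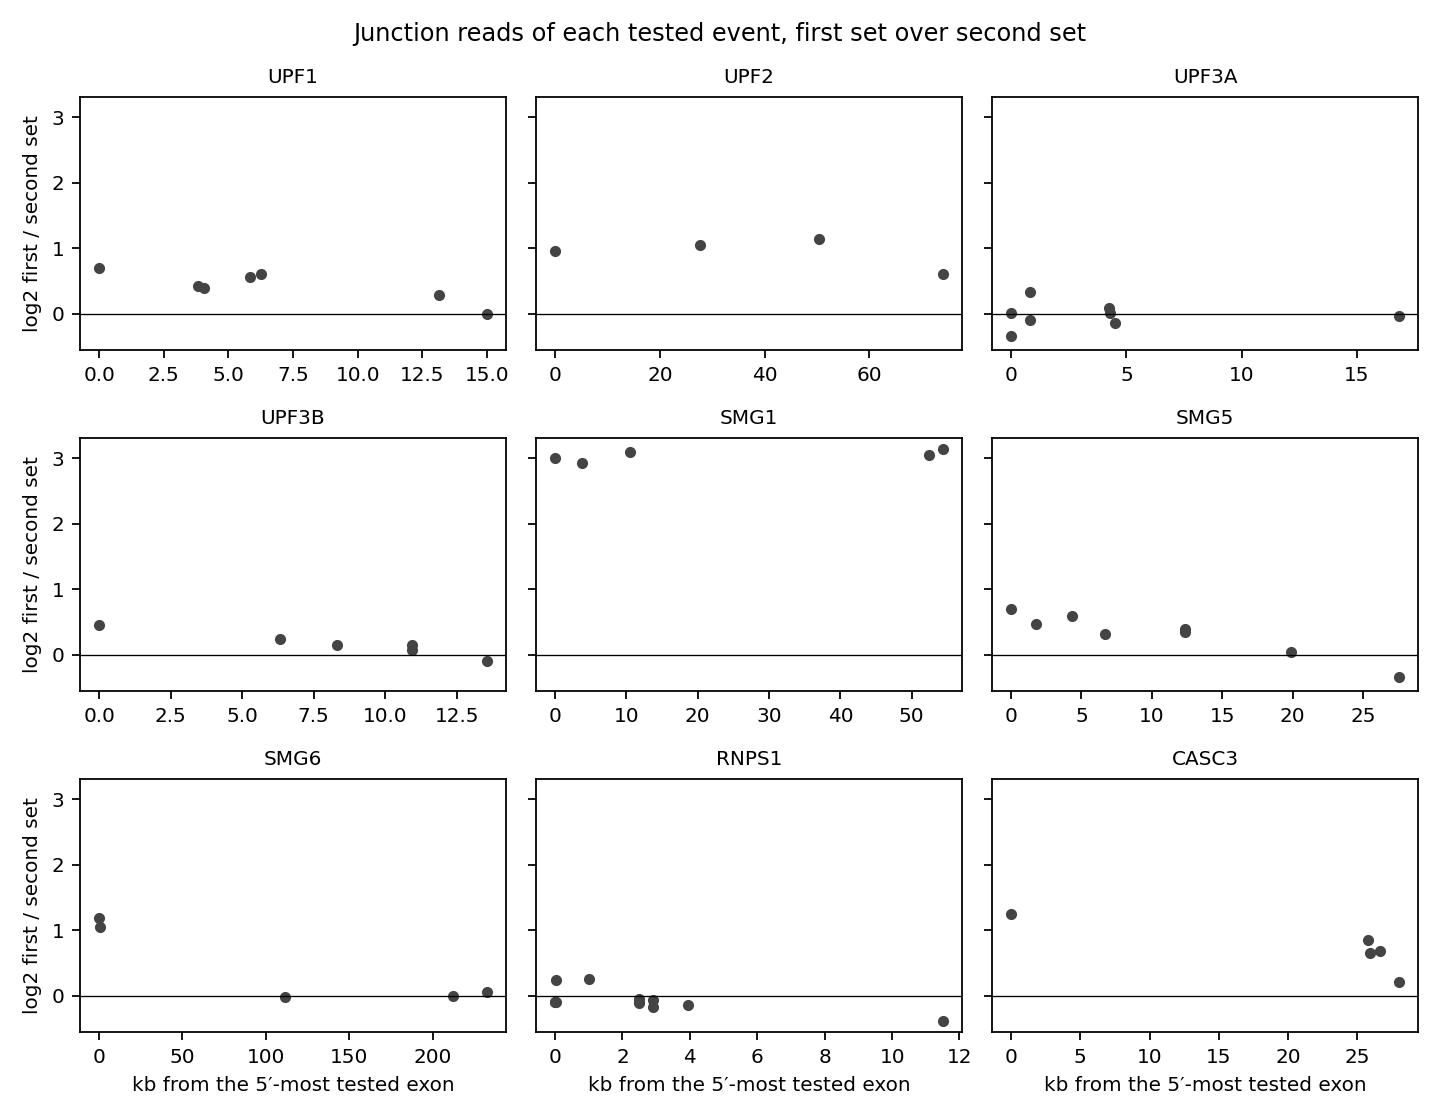
Log2 ratio of scaled junction reads, first over second set (y axis), for each tested event of the 9 genes against the distance of its exon from the 5′-most tested exon (x axis, kb along the gene). Each point is an event, and points of a gene that share junctions are not independent. SMG1 stays between 2.93 and 3.14 while UPF1, UPF3B, SMG5, SMG6 and CASC3 are lower at their 3′ than at their 5′ end.

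Around these 9 genes, a list of 30 further genes of the pathway was examined, with other subunits of the exon junction complex, cap-binding proteins, release factors and decay enzymes. Tested events were present for 28 of them, 174 in all, and 1 (0.575%, against 2.71% of all tested events) was called by the authors' deposited table. It was the 39 nt coding exon of XRN1, the 5′-to-3′ exonuclease that degrades the cut RNA, at chr3:142031978-142032016, at 0.0658 and 0.0948 in first-set libraries and 0.362 and 0.416 in second-set libraries. These levels rested on 98, 60, 12 and 19 reads, the sets did not overlap, and the authors' deposited table gave a difference of -0.308 and 0.00192 as the FDR, whereas the quasi-binomial p was 0.0218 (adjusted p = 0.865). An FDR under 0.05 in the authors' deposited table was found for 8 of the 174 events (4.6%, against 5.72% of all). The quasi-binomial test called 0, with 6 at an unadjusted p under 0.05 (3.45%, against 2.93% of all). Limma on the log2 ratio, which found none of the known differences in simulated data, called 0. It had 7 at an unadjusted p under 0.05 (4.02%, against 4.85% of all).

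Among the events that met the FDR but not the difference of 0.1 was an exon of a gene that acts beside UPF1. DHX34, a helicase that promotes UPF1 phosphorylation, had a 75 nt non-coding exon at 0.0947 and 0.176 against 0.0927 and 0.0494, and the authors' deposited table listed 0.0059 as its FDR. The sets did not overlap, as in 22.9% of all tested events, but their nearest levels were 0.0947 and 0.0927. The quasi-binomial p was 0.0158, which did not survive adjustment (adjusted p = 0.865). A 218 nt coding exon of DHX34 also met the FDR in the authors' deposited table, at 0.0443, with a difference of 0.032.

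In junction reads of the deepest event, 8 of the 28 genes were higher in the first set (17.8% of all genes were), 8 were lower (15.0% of all) and 12 did not pass. The median log2 difference was -0.01, against 0.05 in the 9 genes and 0.03 over all genes. XRN1 had 98 and 60 reads against 12 and 19, a log2 difference of 2.22 (SE 0.591, limma voom adjusted p = 0.00484). Those are the reads of its called 39 nt exon, so the read difference and the inclusion difference of XRN1 are not independent. DCP2, the decapping enzyme, was higher in the first set by 1.73 (SE 0.412, limma voom adjusted p = 0.00201). Subunits of the exon junction complex went both ways. The core subunits RBM8A, at -0.52 (limma voom adjusted p = 0.00784), and MAGOH, at -0.53 (limma voom adjusted p = 0.0094), were lower in the first set, unlike CASC3, and EIF4A3, the core helicase, was at -0.33 and did not pass (limma voom adjusted p = 0.0896). Of the peripheral subunits, PNN, at 0.62 (limma voom adjusted p = 0.00187), and SRRM1, at 0.56 (limma voom adjusted p = 0.00882), were higher. SAP18, at -0.38 (limma voom adjusted p = 0.0427), was lower, and ACIN1, at -0.06, did not pass (limma voom adjusted p = 0.783). DHX34 was at -0.82 (limma voom adjusted p = 0.000201). The lists were compared by counts and medians only, and the positional effect described for UPF1 and CASC3 was not examined in these genes.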

How the data were processed

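The table of skipped exon events was made by the authors with rMATS, per the file headers, and lists inclusion and skipping junction reads of 4 libraries in 2 sets. Per the submitters' processing notes, cutadapt, STAR and hg19 were used; versions, the annotation release and the rMATS version are not given in the sources used here. Inclusion levels, a score column of level differences (first minus second set), p-values and FDR values are as deposited by the authors. Coordinates are hg19, printed 1-based; GENCODE 29, built on GRCh38, gave only exon classes and sequences. The members and lists were chosen with earlier results of these data known.

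Levels were recomputed from reads divided by the deposited form lengths. Events needed a mean of 20 reads per library. A quasi-binomial test was fitted to each event, with dispersions moderated by limma 3.58.1 (R 4.3.3) towards a prior of events with at least 5 reads on each form. Each test was checked on simulated data, and that restriction was added because a first version found fewer of the known differences there; with the measured scatter the version used still missed most of them. Log2 inclusion-to-skipping ratios were also fitted with limma, which found none of the known differences in the same check. Gene-level reads used limma voom with trimmed-mean factors. In its check, 200 genes were changed 4-fold at a set dispersion of 0.02. At an adjusted p under 0.05 it called 215 genes and recovered 197 of the changed ones, and 8.37% of the calls were false. Smaller changes were not covered by that check. The plan named count models for these reads; the reads are joined by commas within a cell and could not be declared as counts, so limma took their place. Adjustment was by Benjamini-Hochberg over all features tested. Events named by rule were those called, up to 3 per gene with a mean level between 0.05 and 0.95, the deepest event of each gene, and called events of the wider list; other events and genes named were chosen after their values were seen. Intervals are 95% Wilson intervals of reads, which are not independent molecules. Alternatives covered read minimums, thresholds, form lengths, scaling and each left-out library. Results for 1 gene of the wider list are not reported here.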

Additional observations from a re-analysis of the deposited data

How the results depend on the processing

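No paired analysis was possible because the columns of the table carry no replicate number of a sample and do not say which set is which group. The count of 1 called member event rose to 2 with no read minimum and fell to 0 with a difference of at least 0.2, with an FDR under 0.01 and with p-values adjusted over tested events only. Leaving out a library gave 0 to 1, but this changed the difference alone, as the authors' FDR remained that of all 4 libraries. The quasi-binomial count was 0 in every setting run, limma on the log2 ratio included, which says little of stability because so few events of the table pass; the smallest unadjusted member p moved from 0.0679 to between 0.00675 and 0.0912 with a library left out. The 2 member events with a difference of at least 0.1 became 1 with no correction for form lengths and 1 to 6 with a library left out. Of the differences of the 16 named events under 6 alternatives, 88 were counted as moving by less than 1 SD and 8 by more. With 2 libraries per set that count says little of stability. It took the UPF3A 99 nt difference as within 1 SD, although it went from -0.0496 to 0.110 without second set library 2. The SMG1 156 nt difference was -0.0229 without first set library 2. The 4 gene-level calls became 1 with the 3′-most event, an alternative chosen after seeing the data like the 5′-most event, and 2 to 3 with a library left out. Scaling by library totals alone moved the median log2 difference of all genes from 0.03 to 0.37 and the calls from 1779 higher and 1498 lower to 2864 and 171, and the members called were then SMG1, UPF1, CASC3 and UPF2. None of the values that changed sign had passed the test: UPF3A was at 0.29 with library totals, 0.29 without first set library 2, 0.09 without second set library 1 and 0.027 at the 3′-most event, with -0.34 to 0.29 over the left-out libraries. UPF3B was at 0.24 with library totals, 0.024 summed over events and 0.22 at the 5′-most event. SMG5 was at -0.24 without second set library 1 and -0.29 at the 3′-most event, with -0.24 to 0.33 over the left-out libraries. SMG6 was at -0.17 without first set library 2 and -0.03 without second set library 1, with -0.17 to 0.31 over the left-out libraries. The causes were not tested. SMG1 passed in all 10 gene-level alternatives. DESeq2 was planned and not run; median-of-ratios factors with limma voom gave the same 4 member genes. Depth limits SMG1 most, with 6 reads on its called exon in 1 library.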
